A study of Mus musculus with 12 samples.

Results

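The 37 genes described here carry cells through G2 and mitosis. They were chosen by name from the 55401 genes listed in the normalized count table, and all 37 were found. RNA was measured in bulk in 12 dishes of airway organoids, hollow epithelial structures grown from lung cells of adult C57BL/6J mice. Each dish held 45 organoids, and all organoids, controls included, carried a lentiviral histone 2A-mCherry reporter under a p63 promoter, which labels nuclei. In 6 dishes, 10 neighboring cells of every organoid were destroyed with a femtosecond laser (ablation), and 6 dishes were left untreated (control). All dishes were moved from growth medium to unsupplemented FluoroBrite DMEM before the laser step and harvested 4.5 h after it. Ablation and control dishes came as 6 pairs, numbered 1, 3, 4, 5, 6 and 7, and both dishes of a pair shared passage, culture day and date. Pair 1 (culture day 14) and pair 3 (day 20) were at passage P2+14, pair 4 (day 14) and pair 5 (day 15) at P2+15, and pair 6 (day 18) and pair 7 (day 19) at P2+16. Pairs 1, 3 and 5 formed a first run of library numbers and pairs 4, 6 and 7 a second one. The titles of controls 4, 6 and 7 hold the word ablation, but their treatment label says control, and this label was used. No source says that the pairs came from separate mice, so that the p-values measure the spread between these dishes. RNA of the whole dish was measured, so that cells beside the ablation site were not separated from the rest.

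Before a cell divides, cyclin A and cyclin B bind the kinase Cdk1 and drive entry into mitosis. Polo-like and Aurora kinases build the spindle, the kinetochore proteins tie chromosomes to its microtubules, and the checkpoint kinases hold the cell until all are attached. Cdc20 then activates the anaphase-promoting complex, a ubiquitin ligase that marks cyclin B for destruction, and the cleavage furrow splits the cell. The mRNAs of these proteins accumulate together in G2 and mitosis and are low in resting cells. This is in part because their promoters share CCAAT boxes, bound by NF-Y, and the cell cycle gene homology region (CHR), bound by the DREAM complex in resting cells and by MuvB with B-Myb and Foxm1 in cycling cells. In the airway, basal cells are the main dividing cells.

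The promoter letters are shown first because they were not used to choose the genes. RefSeq promoters on GRCm38.p6, covering 250 bases before to 50 after the annotated start, were matched for 33 of the 37 genes (not for Aurkb, Ccna2, Kif20a and Tpx2). The CHR was searched as TTTGAA or TTCGAA and the CCAAT box as CCAAT, both on both strands, so that TTCAAA and ATTGG are the same letters on the other strand. A CHR and a CCAAT box can share bases at their ends, and each was counted by itself. Of the 33 promoters, 28 (84.8%) held a CHR, against 21.7% of all 27025 promoters of this length and 16.8% of the 9978 promoters of tested genes. A CCAAT box stood in 27 (81.8%), against 41.1% of all genes with a promoter, and 19 (57.6%) had 2 or more, against 13.3%. Both motifs were found in 25 (75.8%), against 8.61%. Among other G2 and mitosis genes 63.9% held a CHR, and among DNA replication and S phase genes 20%, whereas CCAAT was found in 61.1% and 70%. Cenpe and Ccnb1 had CCAAT letters and no CHR in this window, Anln, Ndc80 and Kif2c a CHR and no CCAAT, and Birc5, Nuf2 and Nusap1 neither. These are matches of letters, with no binding measured here. The following stretches, from 100 bases before the start to 20 bases from it on, are given for 5 genes with both motifs in different spacing and for Birc5 as one without, with CHR and CCAAT letters of either strand in capitals.
Cdk1, chr10:69352893-69353012, minus strand: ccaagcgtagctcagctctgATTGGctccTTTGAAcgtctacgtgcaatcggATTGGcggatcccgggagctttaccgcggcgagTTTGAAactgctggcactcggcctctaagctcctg
Ccnb2, chr9:70421535-70421654, minus strand: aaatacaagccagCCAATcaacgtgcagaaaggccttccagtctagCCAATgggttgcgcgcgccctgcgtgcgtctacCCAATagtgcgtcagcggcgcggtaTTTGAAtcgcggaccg
Cdc20, chr4:118437324-118437443, minus strand: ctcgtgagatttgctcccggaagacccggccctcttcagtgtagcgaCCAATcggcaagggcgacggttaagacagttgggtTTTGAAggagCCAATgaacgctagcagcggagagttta
Ube2c, chr2:164769829-164769948, plus strand: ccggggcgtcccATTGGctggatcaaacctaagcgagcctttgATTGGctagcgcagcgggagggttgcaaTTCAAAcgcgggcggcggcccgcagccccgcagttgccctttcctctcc
Top2a, chr11:99024170-99024289, minus strand: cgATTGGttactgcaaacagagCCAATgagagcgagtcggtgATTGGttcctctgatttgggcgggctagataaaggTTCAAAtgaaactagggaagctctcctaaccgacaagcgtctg
Birc5, chr11:117849137-117849256, plus strand: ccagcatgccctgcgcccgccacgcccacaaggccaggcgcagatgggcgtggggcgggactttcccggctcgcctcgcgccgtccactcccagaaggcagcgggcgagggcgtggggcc
In Cdk1 and Top2a, the last CHR lies close to the start and follows CCAAT boxes. In Cdc20 it stands between a pair of CCAAT boxes. Ccnb2 carries 3 CCAAT boxes in a row with the CHR just after the start.

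**Figure D1:**
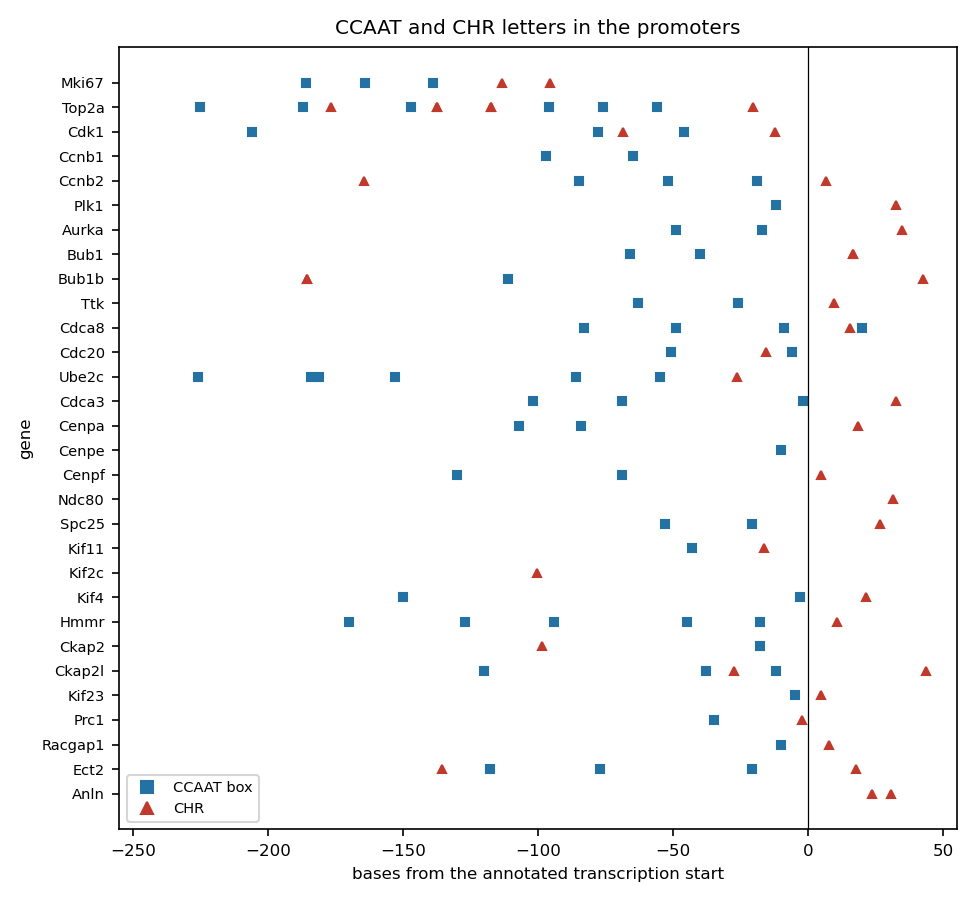
Position of CCAAT (blue squares) and CHR letters (red triangles) on either strand, in bases from the annotated start, in the promoters of the 30 of 33 matched genes with at least 1 of them. For genes with more than 1 promoter entry the first by position is drawn. CCAAT boxes lie mainly before the start, and many CHR letters lie near or just after it.

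All 37 genes were expressed in every dish, most of them at high levels. Mean normalized counts over the 12 dishes ranged from 1096 for Spc25 to 18982 for Top2a, with a median of 3528. Per kilobase of exon, the median was 886.5 normalized counts, above 88.1% of the 13792 tested genes (those reaching 10 normalized counts in 6 or more dishes, which all 37 genes did). Cdc20, the activator of the ubiquitin ligase, had the highest level per kilobase with 3231, followed by Top2a, which untangles chromosomes before they separate, with 2106, and Ccnb2 with 1804. The lowest per kilobase was the outer kinetochore protein Ndc80 with 276.4, above 62.9% of the tested genes. Its partner Nuf2 had 303.8, above 65.5%. Pseudogenes of Cdk1, Ccnb1, Cdc20, Ube2c and Ndc80 are annotated, and the highest value of those checked in any dish was 1.02 normalized counts.

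Markers of basal and luminal cells were high, those of secretory cells were mixed, and those of multiciliated cells were low. Basal cell markers summed to between 543304 and 708312 normalized counts per dish, whereas 6 of 10 markers of multiciliated cells were under 10 in every dish (sums of 128 to 186). The 8 secretory markers summed to 30186 to 83729, most of it Cyp2f2 with 26191 to 78596, and Aldh1a1 had 2015 to 5056. Scgb1a1 and Muc5ac were under 10 in every dish. Muc5b (5.94 to 21.2), Scgb3a2 (6.99 to 21.4) and Scgb3a1 (39.0 to 126) were also low. The 5 luminal keratins summed to 105220 to 135543. The 8 markers of fibroblasts and stroma summed to 195 to 495, with Col3a1, Col1a2, Lum and Pdgfrb under 10 throughout, the 5 leukocyte markers to 142 to 224 and the 3 endothelial markers to 2.96 to 14.3. In 9 libraries the read counts could be recovered from the normalized values and summed to 23631212 to 29775699 reads, and normalized totals of all 12 ranged from 27297950 to 28504390.

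The pair a dish came from was the main source of variation. In all 37 genes, pair 1 was the lowest and pair 7 the second lowest of the 6 pairs. Averaged over the genes, log2(normalized count + 1) deviated from each gene's own mean by −0.44 in pair 1 and −0.24 in pair 7, and by 0.15 in pair 3, 0.23 in pair 4, 0.10 in pair 5 and 0.21 in pair 6. Between pair 1 and pair 4 this was a factor of 1.59. The summed normalized counts of the 37 genes were 122547 after ablation and 117796 in the control of pair 1, and 148593 and 131808 in pair 7. In the other 8 dishes they ranged from 173044 in ablation 5 to 203056 in control 6. In bulk RNA, fewer cells in G2 and mitosis and less of these mRNAs per cell cannot be told apart. Control 7 was also the library with the fewest reads of the 9 with recovered counts, 23631212, while control 1 had 28982636 and ablation 1 had 28341576, within the range of the others.

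**Figure D2:**
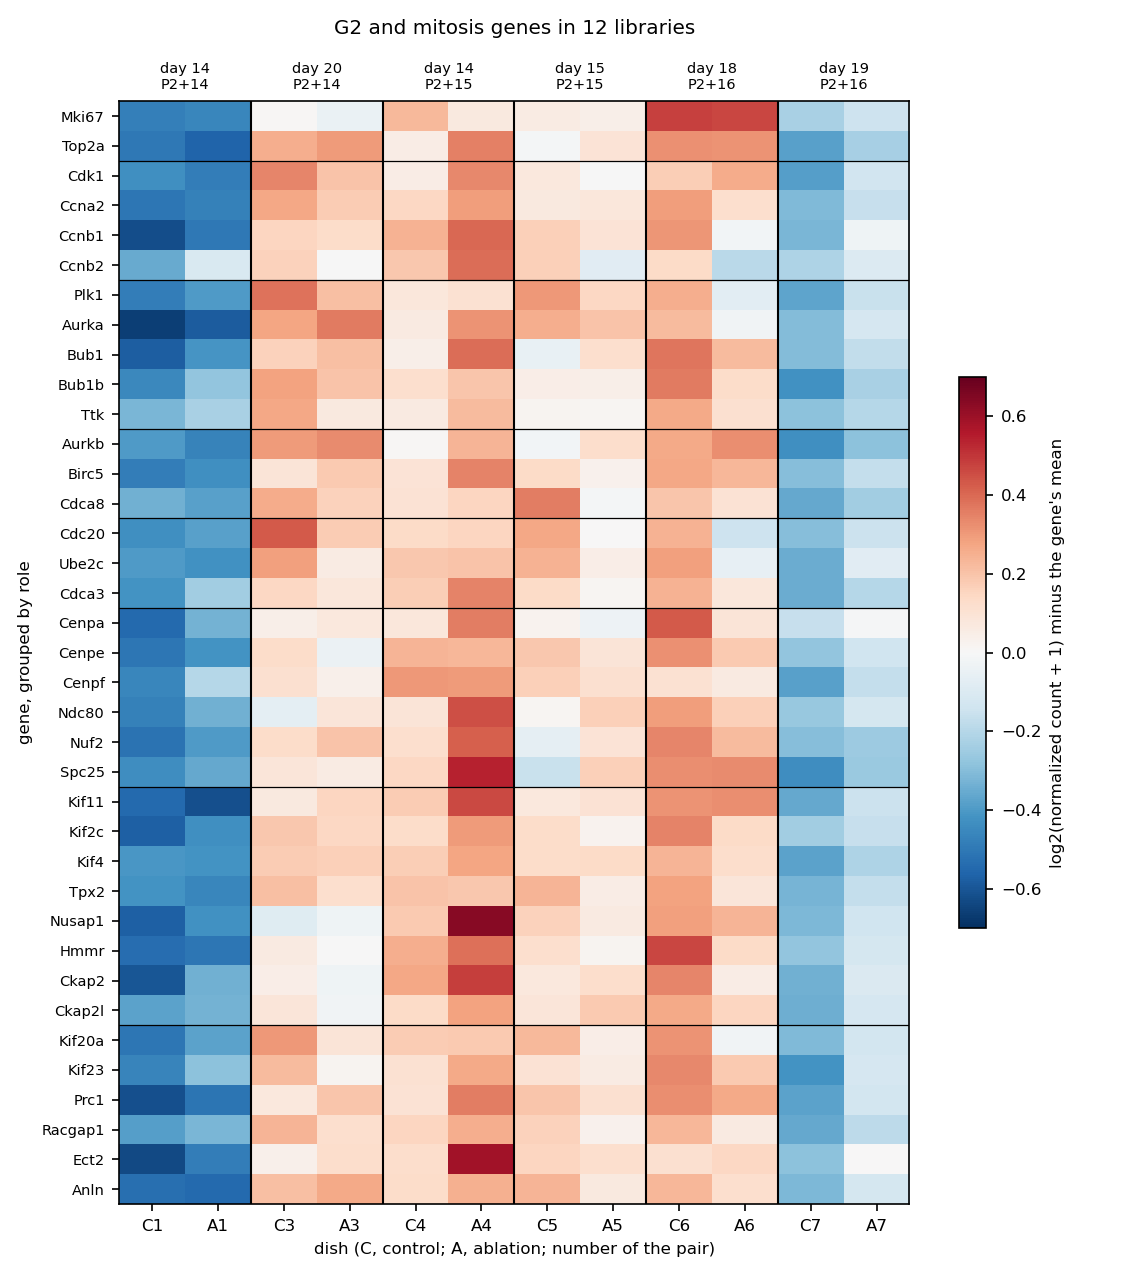
Heat map of the 37 genes (rows, grouped by role) in 12 dishes (columns, by pair, with culture day and passage above). Colors give log2(normalized count + 1) minus the mean of the gene over the 12 dishes. Both dishes of pairs 1 and 7 are blue in nearly every row, and control 1 is the lowest dish of 27 genes and ablation 1 of 9.

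Pair and condition were also fitted together for all 13792 genes. This comparison was added after the pair levels of the 37 genes had been seen, so that its calls among them describe the same pattern and are no independent support for it. At an adjusted p-value under 0.05 (limma, F-test over the 6 pairs, Benjamini-Hochberg), 4083 genes, 29.6% of those tested, differed between pairs. Of the 37 genes, 36 did so. The exception was cyclin B2 (Ccnb2), with an adjusted p of 0.0738 in this limma test. The range between the highest and the lowest pair had a median of 0.71 on the log2 scale over the 37 genes, 1.64-fold, against 0.38 over the other tested genes, 1.30-fold. It ran from 0.46 for the spindle checkpoint kinase Ttk to 0.94 for Mki67. However, 20.6% of the other tested genes had a wider range than the median of the 37. The pair accounted for a median of 90.8% of a gene's sum of squares (69.0% for Ccnb2 to 98.3% for Mki67), against 67.6% over all tested genes, and ablation for a median of 1.08%. Leaving out pair 1 left 31 of the 37 genes past the threshold (2373 of all genes), and leaving out pair 3 left 36 (2215 of all genes). With a plain empirical Bayes step in place of trend and robust estimation, 863 genes and 25 of the 37 were called. The 6 pairs differ in date, culture day, passage and library set at once, so that these cannot be told apart in this comparison.

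**Figure D3:**
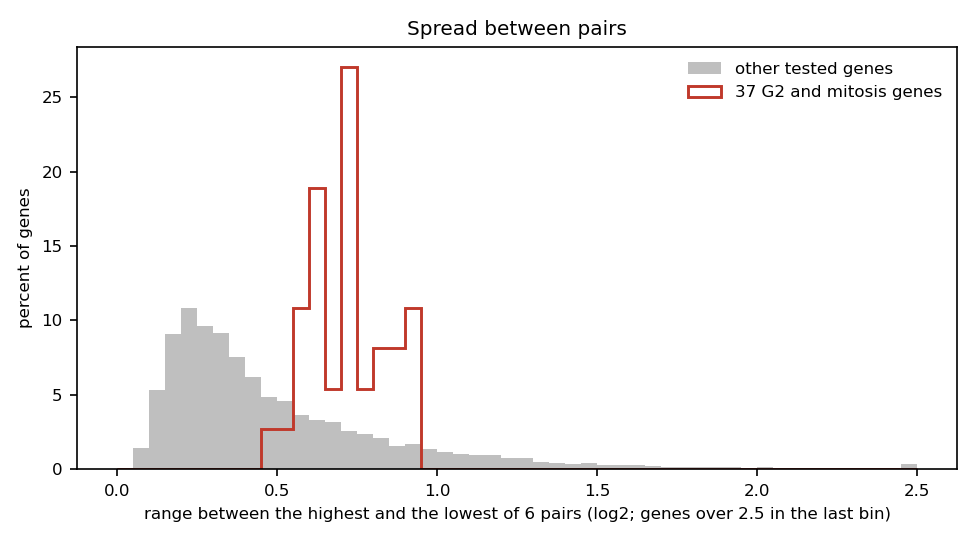
Distribution of the range between the highest and the lowest of 6 pair means (log2 scale) for the 37 genes (red outline) and the other 13755 tested genes (gray bars), in percent of each set. The 37 genes lie between 0.46 and 0.94, around a median of 0.71, to the right of the median of 0.38 of the others.

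The most abundant gene of each role is given with its values in the dishes, Mki67 and Ccnb2 being added after their values were seen. Top2a had 12556, 22777, 23636, 19838, 23087 and 15749 normalized counts in ablation dishes 1, 3, 4, 5, 6 and 7, and 13111, 22083, 19224, 18349, 23116 and 14263 in the controls. The ranges of both groups overlapped almost entirely, and the dishes of pairs 1 and 7 were the lowest 4. Mki67, which coats mitotic chromosomes and is the usual stain for dividing cells, had 11311, 15063, 16323, 15982, 21536 and 14077 after ablation and 11175, 15653, 18190, 16198, 21634 and 13299 in the controls, with both dishes of pair 6 above all others. Among the cyclins and their kinase, Ccna2, which drives S phase and entry into mitosis, ranged from 4156 over a median of 6179 to 7058 after ablation and from 4067 over 6205 to 7074 in controls. Ccnb2 differed from the other members in that ablation dishes 5, 6 and 7 (2589, 2402 and 2561) lay close to ablation 1 (2536), with control 1 the lowest dish at 2142 and ablation 4 the highest at 3586.

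Of the mitotic kinases and checkpoint genes, Bub1b, which delays Cdc20, was most abundant, with 2855 to 3972 after ablation (median 3665) and 2529 to 4446 in controls (median 3659). In the chromosomal passenger complex, which corrects wrong spindle attachments, Cdca8 had 2876 to 4179 after ablation (median 3859) and 2917 to 4787 in controls (median 4144). The highest dish of Cdca8 was control 5, while ablation 5 had 3709. Cenpf, a large protein of the outer kinetochore, had 4125.5 to 5822 (median 4898) and 3453 to 5839 (median 5110), with both dishes of pair 4 highest. Tpx2, which nucleates spindle microtubules and activates Aurora A, had 5611 to 8801 (median 8089) and 5761 to 9368 (median 8876). Anln, a scaffold of the contractile ring in cytokinesis, had 5936 to 10405 (median 9250) and 6019 to 10234 (median 9750). In each of these genes the ablation and control ranges overlapped, and a dish of pair 1 was lowest in both groups, apart from Cdca8 in the controls, where control 7 (2917) was just below control 1 (2965).

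The genes moved closely together across the 12 dishes. Each gene's correlation with the mean of all other members ranged from 0.79 for Ccnb2 to 0.99 for Ccna2 and exceeded 0.9 in 33 of the 37. Over all pairs of genes, the median was 0.90, from 0.47 to 0.99. These are descriptions over 12 dishes that share 6 cultures, and they mostly restate the pair differences. Of the 13755 other tested genes, 102 (0.74%) correlated with the mean of the 37 above 0.9. The 10 most alike were Kif20b (0.99), Kif22, Cip2a, Kif14, Melk, Arhgap19, Prr11, Cdca2, Dbf4 and Shcbp1 (all 0.98), of which Kif20b, Kif22, Kif14, Melk and Shcbp1 are in the list of other G2 and mitosis genes. Dbf4 activates the kinase that starts replication origins.

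Other lists of cell cycle genes followed in part. Against the 29.6% of all tested genes that differed between pairs, 43 of 45 other G2 and mitosis genes did, with a median range of 0.71, and their mean level was also lowest in pairs 1 (−0.42) and 7 (−0.23). Iqgap3 and Espl1, the separase that cuts sister chromatids apart, had the smallest p-values of this list, with ranges of 0.95 and 0.99. Of 25 DNA replication and S phase genes, 22 differed, with a median range of 0.62 and their highest level in pair 3 (0.34), and pairs 1 and 7 were again lowest (−0.25 and −0.23). Among the transcription factors, 12 of 21 differed. Foxm1, the forkhead factor that switches on G2 genes, ranged over 0.71 and correlated with the 37 genes at 0.96, with 1741 and 1722 normalized counts in ablation and control 1, 2020 and 1813 in pair 7 and 2401 to 2926 in the other dishes. In contrast, the G1 cyclins and their kinases (3 of 6 differed) were lowest in pairs 4 (−0.15) and 5 (−0.07) and had a median correlation of −0.05 with the 37 genes, and inhibitors of the cell cycle (7 of 14 differed) had 0.18. The inhibitors stood at −0.07 in pair 1 and −0.02 in pair 7. Of 10 basal cell markers, 7 differed between pairs. Their mean level was highest in pair 1 (0.19) and at −0.06 in pair 7, and lowest in pair 6 (−0.18), with a median correlation of −0.19. The 2 tested stromal markers were at −0.18 in pair 1 and 0.51 in pair 7. The part of cell composition in the pair differences was not tested.

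Ablation was compared with control first with the library set as a covariate. No gene of 13792 passed an adjusted p-value of 0.05 in limma (0%), with 1083 at an unadjusted p-value under 0.05, and none of the 37 genes had an unadjusted p-value under 0.05. Their log2 differences ranged from −0.12 for Cdc20 to 0.17 for Ect2 with a median of 0.03, against a median of −0.0036 over all tested genes. Of the 37, 25 were higher and 12 lower. This split is a description, since the genes move together, and it was not stable. It was 18 higher and 19 lower without pair 7 and in library set 1, and 6 higher and 31 lower, with medians of −0.07 and −0.06, in edgeR and DESeq2 on the 9 libraries with recovered reads, where the pairs are not balanced between groups. In none of the 37 genes did the values of the 6 ablation dishes separate from those of the controls. Among all tested genes the share was 0.457% (63), so that none in 37 is near that share and sets these genes apart in no way. These edgeR and DESeq2 fits called 0 and 11 genes, and none of the 37.

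Since the dishes of a pair were cultured together and the pair carried most of the variation, the paired fit (replicate block) gave narrower intervals. It called 150 of 13792 genes, 1.09%, and none of the 37. The 95% intervals of the 37 genes had a median half-width of 0.11 on the log2 scale in this fit, against 0.32 with the library set. All of the paired intervals lay between −0.26 and 0.29, that is 0.84-fold and 1.22-fold. Each interval is unadjusted and covers its own gene, so that they set no joint bound for the 37 genes. An unadjusted p-value under 0.05 was seen in 17.6% of all tested genes (2433) and in 4 of the 37. These were Ect2, the activator of RhoA at the cleavage furrow (0.17 ± 0.06 SE, limma adjusted p = 0.17), Spc25 (0.16 ± 0.06, adjusted p = 0.192) and Ndc80 (0.14 ± 0.05, adjusted p = 0.199) of the Ndc80 kinetochore complex, and the checkpoint kinase Bub1 (0.12 ± 0.05, adjusted p = 0.283), named after their values were seen. The share of 4 in 37 is to be read against the 17.6% of all genes, and it depended on the fit. With plain empirical Bayes, the paired fit had 0 of the 37 (2190 of all genes) under 0.05 unadjusted. On recovered reads, paired edgeR had 1 (1564 of all genes) and paired DESeq2 0 (870). Leaving out a pair gave from 1 without pair 4 (1880) to 10 without pair 6 (2279). Without pair 4, 8 genes were called, and without pair 1 176; none of the 37 was called when any pair was left out.

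**Figure D4:**
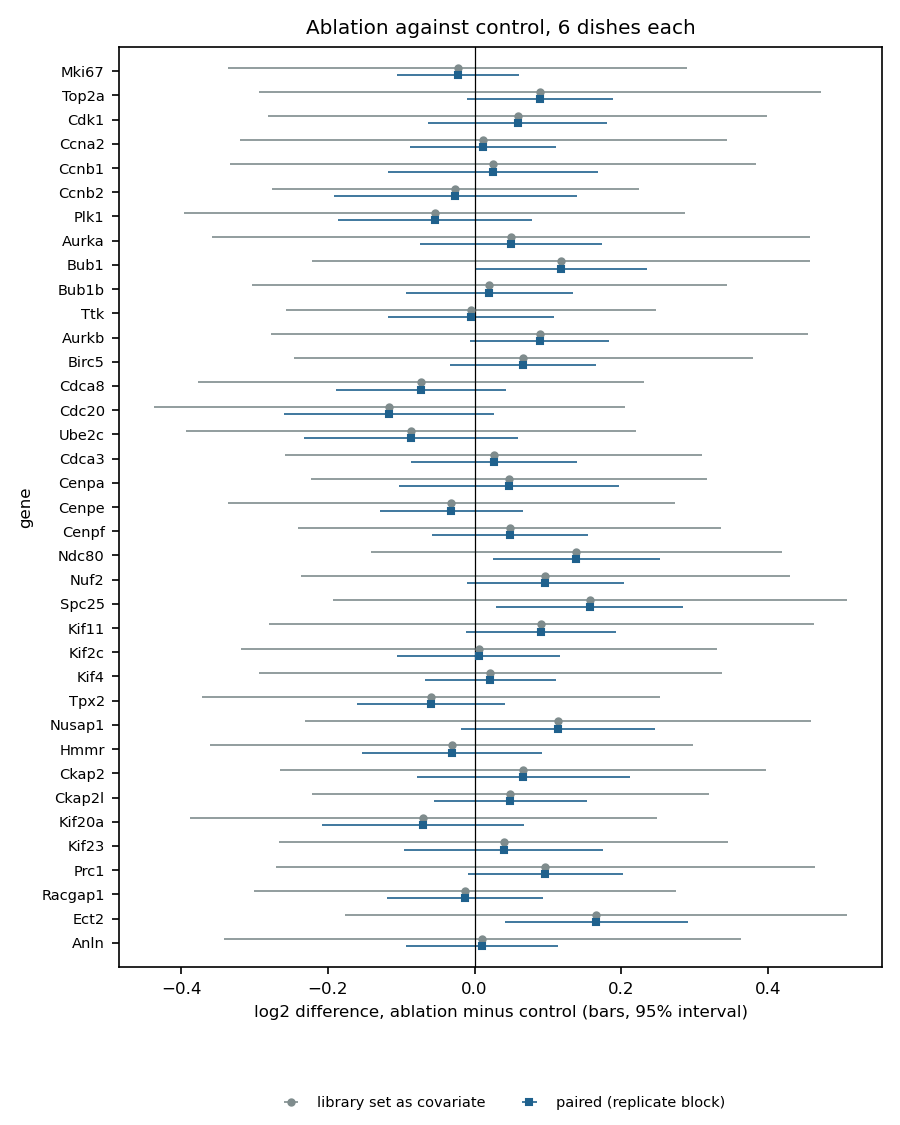
Log2 difference between ablation and control (6 dishes each) of the 37 genes with 95% intervals, with the library set as covariate (gray circles) and with the pair as a block (blue squares). Differences lie between −0.12 and 0.17; paired intervals of Ect2, Spc25, Ndc80 and Bub1 lie above 0 before adjustment, and none passed the adjusted threshold.

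Within pairs, the dishes differed in both directions. The median difference between ablation and control over the 37 genes was 0.09 in pair 1 (28 of 37 higher), −0.07 in pair 3 (13 higher), 0.16 in pair 4 (33 higher), −0.06 in pair 5 (11 higher), −0.15 in pair 6 (5 higher) and 0.16 in pair 7 (37 higher). The median over all tested genes stayed between −0.01 and 0.01 in every pair. Thus most of the genes stood higher after ablation in pairs 1, 4 and 7 and lower in pairs 3, 5 and 6. None of the 37 differed in the same direction in all 6 pairs, and 9.8% of the tested genes did. Since the 37 genes move together, this is a description and not 37 separate results. Mki67 had a mean absolute difference between the dishes of a pair of 0.06, the smallest of the 37. Ccnb2 had the largest, 0.22.

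The extremes of the comparison were as follows. Ect2 had 3353, 5112, 7042, 5094, 5194 and 4708 normalized counts in ablation dishes 1, 3, 4, 5, 6 and 7 and 3022, 4814, 5104, 5210, 5077 and 3841 in the controls. It was higher in 5 of 6 pairs, and ablation 4 stood above all other dishes. Cdc20 had 4557, 6709, 6585, 5946, 5360 and 5349 after ablation and 4409, 8001, 6508, 7151, 7032 and 4824 in the controls. Its difference was −0.25 in pair 3, −0.27 in pair 5 and −0.39 in pair 6 on the log2 scale, and it was higher in the other 3 pairs. By role, the group of Cdc20, Ube2c and Cdca3 had a median difference of −0.09 (1 of 3 higher). The median was 0.07 for the kinetochore and centromere genes (5 of 6 higher) and 0.04 for the spindle genes (6 of 8 higher). It was 0.07 for the passenger complex (2 of 3 higher) and 0.02 each for the cytokinesis genes, the kinases and the cyclins. The roles were not tested as groups, and none of their genes passed the threshold.

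The other cell cycle lists held no gene past the threshold in either fit. In the paired fit, 10 of 45 other G2 and mitosis genes, 9 of 25 DNA replication and S phase genes, 4 of 21 transcription factors, 2 of 14 inhibitors and 0 of 6 G1 cyclins and their kinases had an unadjusted p-value under 0.05, to be read against the 17.6% of all genes. Their medians were 0.06, 0.07, 0.05, 0.03 and −0.06.

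Neither culture day nor passage gave a difference past the threshold in these genes. Pairs at day 18, 19 and 20 (late) were compared with pairs at day 14, 14 and 15 (early), using the mean of both dishes of a pair. No gene of 13792 was called in limma (0%), 624 had an unadjusted p-value under 0.05, and none of the 37 did. Differences ranged from −0.08 for Cenpf to 0.19 for Top2a with a median of 0.08 (32 of 37 higher), against 0.0025 over all genes. Every difference was smaller than its standard error, which was 0.17 for Cenpf and 0.22 for Top2a. The direction depended on single pairs. Without pair 1 the median was −0.13 (37 lower), without pair 6 it was −0.00017 (18 higher, 19 lower), without pair 3 it was 0.02, and without pair 7 it was 0.22. Pairs 1 and 4, both at day 14, held the lowest and the highest level of all pairs, −0.44 and 0.23.

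**Figure D5:**
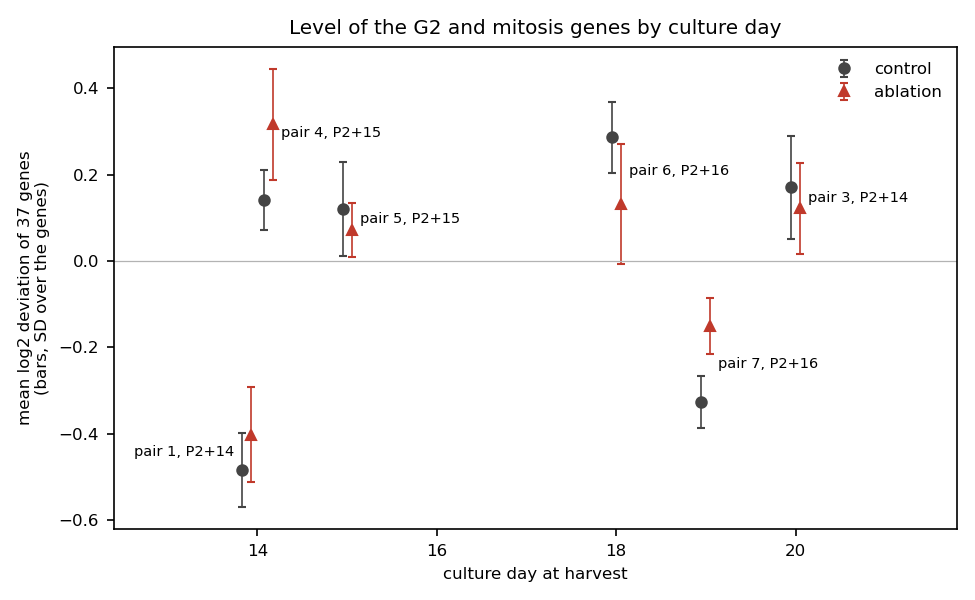
Mean deviation of the 37 genes from their own means (log2 scale, bars give the SD over the genes, not between dishes) in each dish, by culture day at harvest, with controls as gray circles and ablation as red triangles. Labels give pair and passage, and points of the same day are shifted sideways to be seen apart. The day 14 pairs hold the lowest and the highest pair level, and both dishes of pairs 1 and 7 lie below 0.

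Between passage P2+16 (pairs 6 and 7) and P2+14 (pairs 1 and 3), limma called 9 genes of 13792 (0.0653%) and none of the 37. The median of the 37 was 0.13 (33 of 37 higher), from −0.04 for Cdc20 to 0.39 ± 0.23 (SE) for Mki67. Both of these passages held a pair with a low level, pair 1 and pair 7, and the median turned with the pair left out, from a value of −0.17 without pair 1 to 0.43 without pair 3. These alternatives called 404 and 505 of all genes, and none of the 37.

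Last, the response to ablation was compared between late and early pairs. No gene was called (0%), and 803 (5.82%) had an unadjusted p-value under 0.05, among them 2 of the 37. These were Bub1 (difference of −0.22 ± 0.09 SE, limma adjusted p = 0.853) and Nuf2 (−0.20 ± 0.09, adjusted p = 0.853), again named after their values were seen. The median of the 37 was −0.09 (7 higher, 30 lower), from −0.22 for Ckap2 to 0.10 for Cdca8. This median varied with the pair left out, from −0.0064 without pair 6 (17 higher, 20 lower) to −0.20 without pair 7 (2 higher, 35 lower). Of the 37, 0 had an unadjusted limma p-value under 0.05 without pair 6, and 12 without pair 7. With plain empirical Bayes it was 0, so that Bub1 and Nuf2 dropped out. None of the 37 was called in these fits. Since the genes move together, these counts are descriptions.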

How the data were processed

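Poly(A) RNA of 12 dishes was sequenced from stranded libraries. Per the study's methods, the nf-core pipeline for RNA-seq was run by the authors on GENCODE mouse GRCm38.p6. The deposited signal values are normalized counts, read counts that the authors divided by 1 DESeq2 size factor per library; the gene lengths, also deposited, gave the values per kilobase. In every column, the low values were whole multiples of 1 step (100% of those checked, within a tolerance of 0.1). Higher values were not checked in this way. Reads were recovered for 9 libraries, and the step of the other 3 was too close to 1 for the rule applied. Columns with the authors' own fold changes and p-values were not used, and 0 columns of samples were left unmapped.

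Groups followed the treatment label. Genes reaching 10 normalized counts in 6 or more libraries entered the tests, on log2(normalized count + 1), so that fold changes of low genes would be understated, with limma 3.58.1 (R 4.3.3; trend, robust estimation, Benjamini-Hochberg over all tested genes, threshold 0.05). The authors' model had a batch that the methods do not name; the library set was used in its place. Alternatives were the replicate block, other pseudocounts (0.5, 10), no filter, quantile and TMM scaling, plain empirical Bayes, leaving out each pair, and edgeR 4.0.16 and DESeq2 1.42.0 on recovered reads (9 libraries, 8 when paired). The fits were tested on simulated data. Same-numbered dishes share passage, day and date in their titles, and their deviations correlated with r = 0.21 to 0.62 in all 6 pairs. In pair 4, which had the lowest r of 0.21, the ablation dish correlated better with the control of another pair.

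Genes with values were named by a rule: the most abundant gene of each role, the extremes of the ablation and culture day comparisons, and of other lists up to 2 genes with the smallest p. The 37 genes, the lists and the rule were chosen with earlier results of these data known.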

Additional observations from a re-analysis of the deposited data

How the results depend on the processing

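The 37 genes held no called gene for ablation, culture day, passage or their combination under any alternative run, and between 25 (plain empirical Bayes) and 37 called genes for differences between pairs. The number of all genes called changed. For ablation it was 0 with the library set, also when any pair was left out, 3 without a filter, 150 with the replicate block (paired), 8 to 176 with the block and one pair left out, 0 with the block and plain empirical Bayes, 16 and 109 in library sets 1 and 2 with the block, 11 with DESeq2, and with the block 3 with edgeR and 72 with DESeq2. For culture day it was 3 without a filter and 1 with the library set as covariate; for passage 220 without a filter, 0 with plain empirical Bayes, 1 in ablation dishes and 0 to 505 without a pair; for the response to ablation by day 21 without a filter; and for differences between pairs 863 with plain empirical Bayes and 2215 to 4142 without a pair. The median of the 37 genes for passage ranged from −0.17 to 0.43 without a pair.

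For ablation, the median of the 37 genes was 0.03 (25 higher, 12 lower) with the library set, and −0.07 and −0.06 (6 higher, 31 lower in both) with edgeR and DESeq2 on the recovered reads. Small log2 differences of single genes also changed sign, none of them past the threshold. For ablation, edgeR and DESeq2 on the 9 recovered libraries, where the groups are unbalanced, gave Top2a −0.054 and −0.049, Ccna2 −0.10 and −0.097, Bub1b −0.086 and −0.081, and Anln −0.11 and −0.11, and with the block Anln −0.025 and −0.027. Library set 1, with and without the block, gave Ccna2 −0.016 and Anln −0.045, and library set 2 gave Cdca8 0.024. Without a pair, Ccna2 ranged from −0.015 to 0.049, Bub1b from −0.014 to 0.072 and Anln from −0.027 to 0.046. For culture day, control dishes gave Cdca8 −0.010, and Ect2 was −0.033 with the library set and −0.038 with the passage as covariate. Without a pair, Top2a ranged from −0.026 to 0.39, Ccna2 from −0.080 to 0.28, Bub1b from −0.046 to 0.30, Cdca8 from −0.13 to 0.20, Cdc20 from −0.096 to 0.22, Cenpf from −0.26 to 0.055, Tpx2 from −0.14 to 0.21, Anln from −0.11 to 0.27 and Ect2 from −0.22 to 0.24. The cause was not tested. With 6 pairs, 3 per class of culture day and 2 per passage, these comparisons resolve less than the paired one.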
